A study of Mus musculus with 4 samples.

Results

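mTORC1 is a protein kinase complex that couples nutrients, energy and growth factors to protein synthesis and cell growth. The measurements here concern 10 genes that encode subunits and regulators of the MTOR kinase complexes downstream of the kinase AMPK: Tsc1, Tsc2, Rheb, Mtor, Rptor, Rictor, Ddit4, Sesn1, Sesn2 and Ulk1. They were listed by name for their known roles, with earlier results of these data known, and all 10 of them were found among the 22556 genes of the deposited table. All 10 also passed the filter on low values, a mean of at least 0.5 FPKM (fragments scaled to transcript length and to the mapped reads of the library) over the 4 libraries, which left 13770 genes for testing. The libraries came from the lungs of E16.5 mouse embryos, taken whole, 2 from Control embryos (genotype Shh-Cre; Stk11F/+) and 2 from Shh-Stk11 embryos (Shh-Cre; Stk11F/F). Both genotypes therefore carried the Shh-Cre driver and at least 1 floxed Stk11 allele, and the Control embryos were heterozygous rather than wild type. Shh-Cre acts in the endoderm that lines the lung, so that mesenchyme, vessels and blood in the same libraries retained Stk11. The strain was given as C57BL/6 in the labels and as mixed backgrounds in the methods of the study, no agent was applied, and neither litter nor sex was recorded. The replicates were described as independent biological replicates, without a statement on whether they were single or pooled embryos.

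STK11 phosphorylates and activates AMPK, the sensor of low cellular energy. Active AMPK restrains mTORC1 on separate routes: it phosphorylates TSC2, which with TSC1 forms the complex that switches off the small GTPase RHEB, and it phosphorylates RPTOR, the mTORC1 subunit that binds substrates. It also activates ULK1, the kinase that starts autophagy, which mTORC1 in turn inhibits. These steps act on proteins through phosphorylation, and libraries of RNA measure only the abundance of the transcripts that encode them.

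Stk11 was first examined in every library. It was at 44.0 and 45.5 FPKM in Control 1 and 2 and at 29.5 and 26.0 FPKM in Shh-Stk11 1 and 2. Its level in Shh-Stk11 was 0.619-fold that of Control, a difference of -0.69 on the log2 scale with an SE of 0.125 (limma adjusted p = 0.0499), and in these bulk libraries fewer cells of a type and less RNA per cell cannot be told apart. Leaving out any single library gave a log2 fold change of -0.78 to -0.60 and ended that call (limma adjusted p from 0.113 to 0.183). Stk11 was called in 3 of 16 alternative settings (limma adjusted p from 0.0367 to 0.215), with a log2 fold change of -0.78 to -0.59. The depth estimated from the low FPKM values was between 30.8 and 38 M reads per library. By Xist and Ddx3y the library Shh-Stk11 2 was male (0.239 and 23.5 FPKM) and the other 3 were female, with Xist from 65.1 to 169 FPKM. Defining markers of lung epithelium, mesenchyme and endothelium were present in all libraries. Markers of ciliated cells summed to 84.8 and 93.2 FPKM in Control and to 27.7 and 25.1 FPKM in Shh-Stk11, with 6 of 7 tested markers called lower and none of the 8 listed at 0 throughout. The epithelial sum was 18169 and 16565 FPKM in Control and 8866 and 12986 FPKM in Shh-Stk11 with 0 of 8 markers called, while the median log2 fold change of these markers was 0.18, with 4 of 8 higher and 2 of 8 lower without overlap, beside 19.2% and 27.6% of all genes tested. The endothelial sum was 769 and 661 against 530 and 566 FPKM with 0 of 8 called but 7 of 8 lower without overlap (median log2 fold change -0.38), and the red blood cell sum was 3723 and 3867 against 2497 and 2770 FPKM with 1 of 6 called lower and 4 of 6 lower without overlap (median -0.54). The mesenchymal sum was 1095 and 955 against 890 and 808 FPKM with 0 of 8 called and 4 of 8 lower without overlap (median -0.19), and the sums of immune (282 to 537 FPKM) and heart muscle markers (60.6 to 251 FPKM) overlapped between the genotypes. The part of these shifts in the values that follow was not tested.

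None of the 10 regulators differed between the genotypes at a limma adjusted p below 0.05, against 2.27% of all genes tested, and 1 of them, Rictor, had an unadjusted p below 0.05, against 15.2% of all genes. The genotypes did not overlap for 4 regulators, 2 with both Shh-Stk11 values above the Controls (Rictor and Ddit4) and 2 with both below (Rheb and Sesn1). Of all genes tested 46.8% did not overlap, 19.2% in the upward and 27.6% in the downward direction, so this count lay near the background. The median log2 fold change of the 10 regulators was 0.06, beside -0.05 for all genes tested, with 7 values above 0 and 3 below, and it turned to -0.04 once the trend of expression on transcript length and GC content was removed. The limit of the design is its size: the smallest p that exact two-sided permutation of 4 libraries can reach is 0.33, and every smaller p rests on the normal model of limma, with a variance partly borrowed across genes.

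**Figure D1:**
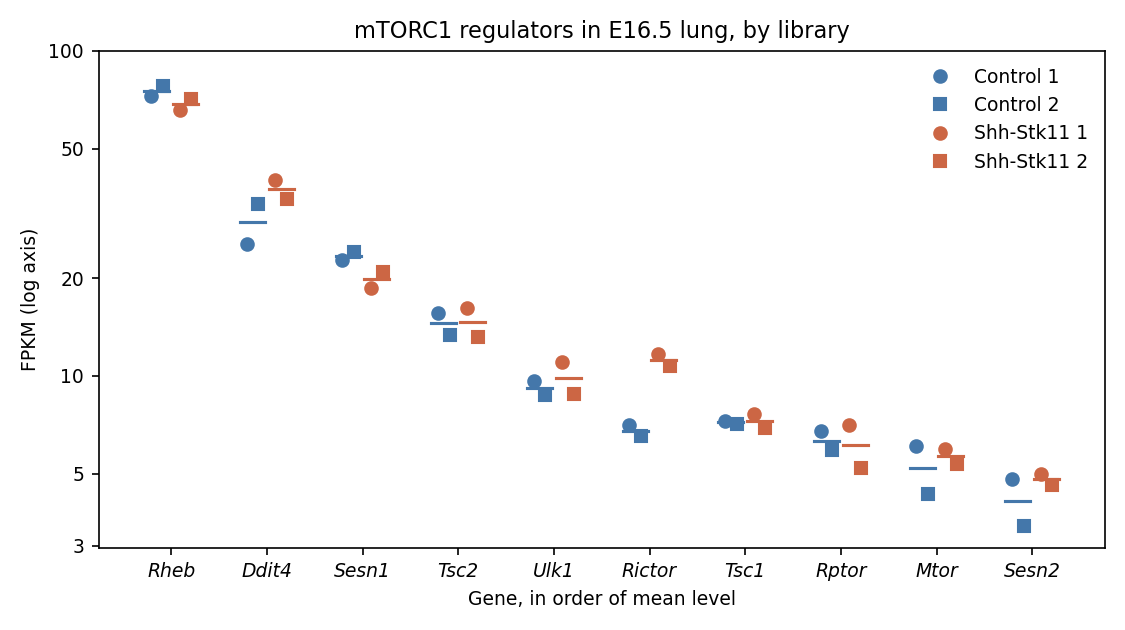
FPKM (log axis) of the 10 mTORC1 regulators in the 4 libraries, 1 point per library and a bar at each genotype's mean (n = 2). Rheb lay highest, at 65.9 to 77.8 FPKM, Sesn2 lowest, at 3.46 to 5.0 FPKM, and Rictor shows the widest gap between the genotypes.

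On the per-length scale of FPKM, the regulators spanned a wide range of levels. Rheb was the most abundant, at a mean of 72.0 FPKM over the 4 libraries. Ddit4 followed at 33.6, Sesn1 at 21.6 and Tsc2 at 14.6 FPKM, and the libraries of these 4 genes did not overlap with those of the next gene in the order. Ulk1 (9.54 FPKM), Rictor (8.98), Tsc1 (7.24), Rptor (6.23), Mtor (5.44) and Sesn2 (4.47) came below, and each of them overlapped with its neighbour. The means of the 6 lowest lay under the median of all genes tested, 11.1 FPKM. The place of Rictor differed by genotype: its Control mean of 6.79 FPKM was below that of Tsc1 (7.20), and its Shh-Stk11 mean of 11.2 FPKM was above that of Ulk1 (9.89) and above that median. The kinase Mtor and its subunit Rptor were at similar levels, and the GTPase that activates them was above both in every library.

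The brake on mTORC1 is the TSC complex, in which TSC2 carries the activity that makes RHEB hydrolyse GTP and TSC1 stabilizes TSC2. Tsc1 was at 7.29 and 7.12 FPKM in Control and at 7.63 and 6.91 FPKM in Shh-Stk11. The Shh-Stk11 libraries enclosed both Controls, and the genotype difference was 0.01 on the log2 scale (SE 0.134, 95% interval of the fold 0.807 to 1.26, limma adjusted p = 0.978). Tsc2 was at 15.6 and 13.4 FPKM in Control and at 16.2 and 13.2 FPKM in Shh-Stk11. In both genotypes replicate 1 was above replicate 2 by more than the genotypes differed, which was 0.02 on the log2 scale (SE 0.154, interval 0.784 to 1.31-fold, limma adjusted p = 0.966). The ratio of Tsc1 to Tsc2 FPKM was 0.468 and 0.533 in Control and 0.472 and 0.522 in Shh-Stk11, a log2 difference of -0.01 (exact permutation p = 1). A change of either gene within these intervals was not detectable in these libraries.

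RHEB in its GTP-bound form binds and activates mTORC1. Rheb was at 72.7 and 77.8 FPKM in Control and at 65.9 and 71.3 FPKM in Shh-Stk11. Both Shh-Stk11 values lay below the lower Control value, by a small margin, and the log2 fold change of -0.13 (SE 0.124, 0.912-fold, interval 0.741 to 1.12) did not pass the test (limma adjusted p = 0.67). Rheb was backed by the most reads of the 10, an estimated 7802 to 10625 per library. The third subunit of the TSC complex, Tbc1d7, and the RHEB paralog Rhebl1, listed among the complex partners, were not called either, with log2 fold changes of -0.12 and -0.45 (limma adjusted p = 0.697 and 0.411).

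MTOR is the kinase shared by both of its complexes, and RPTOR and RICTOR are the subunits that tell mTORC1 and mTORC2 apart. Mtor was at 6.07 and 4.35 FPKM in Control and at 5.96 and 5.38 FPKM in Shh-Stk11. Both Shh-Stk11 values fell between the Controls, and the log2 fold change was 0.14 (SE 0.193, interval 0.797 to 1.52-fold, limma adjusted p = 0.786). The gap between the Control replicates of Mtor was 0.47 on the log2 scale, larger than the genotype difference, which ran from -0.10 without Control 2 to 0.37 without Control 1. Rptor was at 6.75 and 5.92 FPKM in Control and at 7.05 and 5.23 FPKM in Shh-Stk11. The Shh-Stk11 libraries lay on either side of the Controls (log2 fold change -0.06, SE 0.184, interval 0.707 to 1.31-fold, limma adjusted p = 0.918).

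Rictor stood apart from these in size. It was at 7.06 and 6.53 FPKM in Control (6.79 ± 0.378, SD, n = 2) and at 11.7 and 10.7 FPKM in Shh-Stk11 (11.2 ± 0.708, n = 2). Both Shh-Stk11 libraries were well above both Controls, and the gaps between replicates, 0.11 and 0.13 on the log2 scale, were small beside the genotype difference of 0.71 (SE 0.132, 1.63-fold, interval 1.31 to 2.04). Its limma adjusted p of 0.0537, from an unadjusted p of 0.00137, placed it 350th of the 13770 genes and just outside the threshold. Rictor was backed by an estimated 1873 to 3271 reads per library. The difference was 0.77 among the 3 female libraries, that is, without Shh-Stk11 2 (limma adjusted p = 0.149).

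The position of Rictor at the threshold moved with the processing. Among 16 alternative settings its limma adjusted p ran from 0.0367 to 0.47 and passed 0.05 in 3 of them, and its log2 fold change ran from 0.35 to 0.77, never below 0. The value at the lower end came from removing the trend of the expression values on transcript length and GC content. Rictor has a transcript of 9312 bases with 42.5% GC, and the 10% of tested genes with the longest transcripts had a median log2 fold change of 0.19 (quartiles 0.01 and 0.43). With the trend removed, Rictor differed by 0.35 (interval 0.09 to 0.61, limma adjusted p = 0.21), and its genotypes still did not overlap. The same step left 6 regulators without overlap, Tsc1, Rheb and Sesn1 lower and Rictor, Ddit4 and Sesn2 higher, against 45.7% of all genes tested, and 0 of 10 past the threshold, against 1.4% of all genes. The groups of Tsc1 and Sesn2 overlapped before this step.

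**Figure D2:**
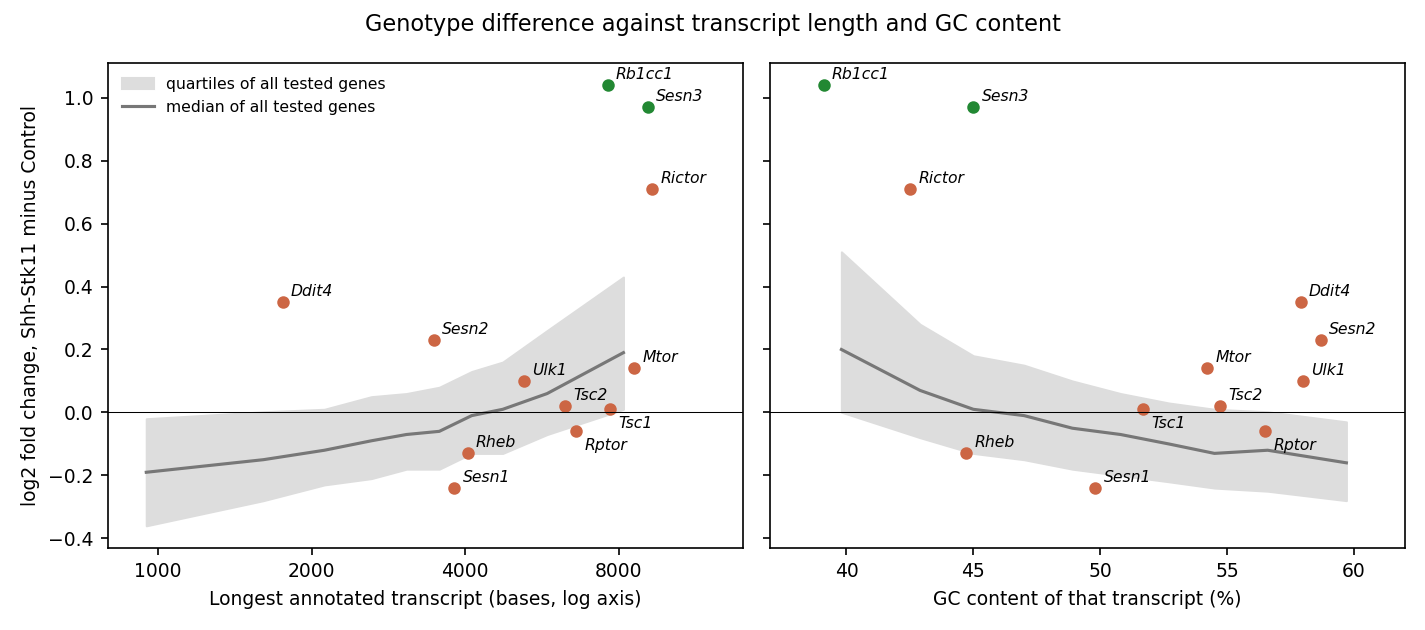
log2 fold change (Shh-Stk11 minus Control) of the genes tested, by length and by GC content of the longest transcript, with the median and quartiles of the 10 equal bins and the regulators and Sesn3 and Rb1cc1 marked. Genes with the longest transcripts had a median of 0.19, and Rictor, at 0.71, lay above the upper quartile of its bin, 0.43.

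The balance of Rictor to Rptor transcripts followed from these levels. It was 1.05 and 1.10 in Control and 1.65 and 2.04 in Shh-Stk11, a log2 difference of 0.77, and both Shh-Stk11 libraries were above both Controls (exact permutation p = 0.33, the smallest 2 against 2 libraries allow). With the length and GC trend removed the difference was 0.49. Of the other subunits, Mlst8, shared by both complexes, was at a log2 fold change of -0.10, the mTORC1 subunit Akt1s1 at -0.24, and the mTORC2 subunits Mapkap1, Prr5 and Prr5l at -0.04, -0.23 and -0.36. None of these was called (limma adjusted p from 0.235 for Prr5l to 0.894 for Mapkap1). The groups of Akt1s1, Mapkap1, Prr5 and Prr5l did not overlap, with the Shh-Stk11 values below the Controls. For Mapkap1 the margin was small, at 26.3 and 26.4 FPKM in Control and 26.1 and 24.9 FPKM in Shh-Stk11. Of all genes tested, 27.6% were lower and 19.2% higher without overlap. Deptor, an inhibitor that binds both complexes, was at 3.63 and 2.40 FPKM in Control and at 4.05 and 3.76 FPKM in Shh-Stk11, also without overlap (log2 fold change 0.39, SE 0.225, limma adjusted p = 0.478).

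Ddit4 and the Sestrins are inhibitors of mTORC1 that cells induce under stress. DDIT4, also known as REDD1, acts through the TSC complex and is a target of hypoxia and glucocorticoid signalling. Ddit4 was at 25.4 and 33.9 FPKM in Control and at 40.1 and 35 FPKM in Shh-Stk11. Both Shh-Stk11 values lay above the Controls, but Shh-Stk11 2 exceeded Control 2 by little, and the Controls themselves were 0.41 apart on the log2 scale. The log2 fold change of 0.35 (SE 0.171, 1.27-fold, interval 0.958 to 1.69) did not pass the test (limma adjusted p = 0.41). Leaving out Control 1 gave 0.14 and leaving out Control 2 gave 0.56, so that this value depended on which Control was kept. With the length and GC trend removed it was 0.49 (interval 0.08 to 0.90), still short of the threshold (limma adjusted p = 0.259).

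The Sestrins bind GATOR2, a complex of the amino acid branch, and SESN2 is a leucine sensor of that branch. Sesn1, a p53 target, was at 22.7 and 24.0 FPKM in Control and at 18.6 and 20.9 FPKM in Shh-Stk11. Both Shh-Stk11 libraries lay below the Controls, at 0.847-fold with an interval of 0.687 to 1.04 (log2 fold change -0.24, SE 0.125, limma adjusted p = 0.438). Sesn2, a target of ATF4 and p53, was at 4.81 and 3.46 FPKM in Control and at 5.0 and 4.63 FPKM in Shh-Stk11. Control 1 lay inside the Shh-Stk11 range, and the log2 fold change was 0.23 (SE 0.194, interval 0.849 to 1.62-fold, limma adjusted p = 0.63). It was also the regulator with the fewest estimated reads, 357 in its lowest library, where counting error was about 5.3%. Without Control 2 the difference of Sesn2 was near 0, at -5e-04, and without Control 1 it was 0.46.

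The third Sestrin, Sesn3, a target of FOXO factors that was listed among the paralogs of the 10 regulators, rose in Shh-Stk11. It was at 10.8 and 9.39 FPKM in Control and at 21.7 and 18.0 FPKM in Shh-Stk11. Every Shh-Stk11 library was well above every Control, at 1.95-fold (log2 fold change 0.97, SE 0.150, interval 1.52 to 2.51-fold, limma adjusted p = 0.0335). Its transcript, at 9125 bases, is nearly as long as that of Rictor. Sesn3 was still called with the length and GC trend removed (log2 fold change 0.69, limma adjusted p = 0.0438). It was not called with the replicate block added to that step (limma adjusted p = 0.181). The part of transcript length in this rise was not tested. The call held in 8 of the 16 alternatives (limma adjusted p from 0.0189 to 0.181) and was lost without any single library, at 0.135 without Control 1, 0.167 without Control 2, 0.137 without Shh-Stk11 1 and 0.0601 without Shh-Stk11 2, which left female libraries only.

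The makeup of the Sestrin transcripts, examined after the rise of Sesn3 was seen, restates these levels as shares. Sesn3 made up 28.2% and 25.5% of the summed Sestrin FPKM in Control and 47.9% and 41.3% in Shh-Stk11. Sesn1 made up 59.2% and 65.1% in Control and 41.1% and 48.1% in Shh-Stk11, so that Sesn3 was the larger share in Shh-Stk11 1 only. The Sesn3 share differed by 17.8 percentage points, or by 12.6 with the length and GC trend removed, and the groups did not overlap. The summed level was 38.3 and 36.9 FPKM in Control and 45.3 and 43.5 FPKM in Shh-Stk11, a log2 difference of 0.24. The ratio of Sesn1 to Sesn2 was 4.71 and 6.94 in Control and 3.73 and 4.52 in Shh-Stk11, a log2 difference of -0.48 (exact permutation p = 0.33), and Control 2 was the highest of the 4. Without Control 1 this difference was -0.76 and without Control 2 it was -0.20.

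**Figure D3:**
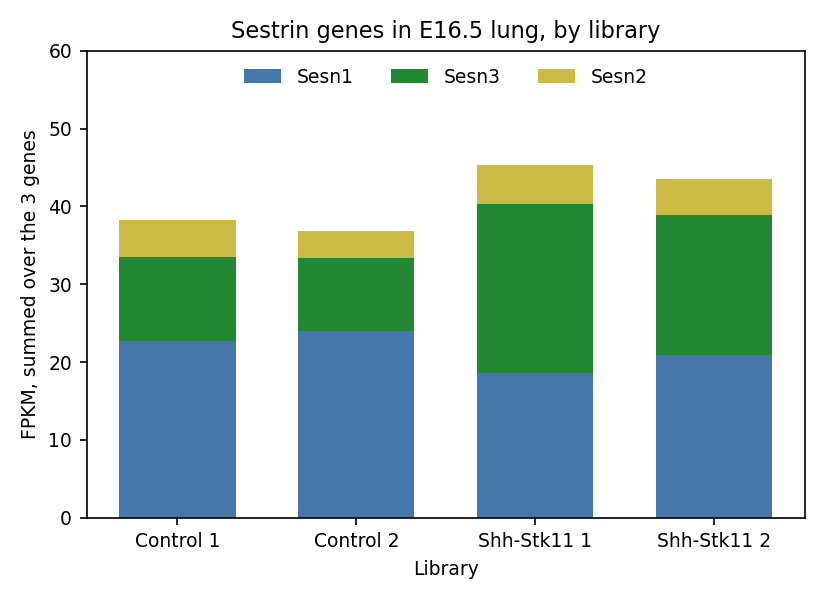
FPKM of Sesn1, Sesn2 and Sesn3 stacked for each of the 4 libraries, on a linear axis from 0. The Sesn3 part was 28.2% and 25.5% of the sum in Control and 47.9% and 41.3% in Shh-Stk11, while the sum ran from 36.9 to 45.3 FPKM.

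Stretches upstream of the start sites are shown for Rictor, with the largest difference of the 10, for Ddit4, the stress-induced inhibitor, and for Sesn3, the paralog that rose. Each line holds the 150 bases from 250 to 101 before the RefSeq start site, read 5′ to 3′ on the strand of the gene (RefSeq, GRCm38.p6), at chr15:6708131-6708280 on the plus strand for Rictor, chr10:59951871-59952020 on the minus strand for Ddit4 and chr9:14276051-14276200 on the plus strand for Sesn3. Capitals mark the core of a hypoxia response element, ACGTG, which was found in Ddit4 with its first base 187 before the start and in neither of the other two stretches.
Rictor: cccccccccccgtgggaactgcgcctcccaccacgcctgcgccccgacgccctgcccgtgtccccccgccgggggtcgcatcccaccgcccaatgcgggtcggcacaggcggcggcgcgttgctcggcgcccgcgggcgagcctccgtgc
Ddit4: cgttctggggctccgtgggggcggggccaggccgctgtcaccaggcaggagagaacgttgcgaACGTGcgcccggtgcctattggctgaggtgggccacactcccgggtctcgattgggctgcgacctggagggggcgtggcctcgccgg
Sesn3: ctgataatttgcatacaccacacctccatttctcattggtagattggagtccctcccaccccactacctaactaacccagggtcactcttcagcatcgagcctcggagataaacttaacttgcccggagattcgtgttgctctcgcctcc
The stretches differ in base composition, with 81.2% GC in the 250 bases before the start of Rictor, 70.0% for Ddit4 and 59.6% for Sesn3. Over those 250 bases on both strands, ACGTG occurred in 3 of the 11 promoters listed for the 10 regulators, those of Rheb, Rptor and Ddit4, and in 16.6% of 32851 mouse promoters. GTAAACA, a forkhead motif, occurred in 0 of the 11 and in 3.17% of all promoters, and TGACG, a partial cAMP response element, in 4 of the 11 and in 17.8%. A match describes letters in this window only.

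ULK1 starts autophagy in a complex with ATG13, ATG101 and RB1CC1 (also known as FIP200). Ulk1 was at 9.67 and 8.72 FPKM in Control and at 11.0 and 8.82 FPKM in Shh-Stk11. Shh-Stk11 2 fell between the Controls, and the log2 fold change was 0.10 (SE 0.155, interval 0.826 to 1.38-fold, limma adjusted p = 0.815). The ratio of Ulk1 to its paralog Ulk2 was 0.679 in both Controls and 0.789 and 0.682 in Shh-Stk11 (log2 difference 0.11, exact permutation p = 0.33), the value of Shh-Stk11 2 being close to the Controls.

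Of the partners of Ulk1, Rb1cc1, the scaffold of the complex, rose. It was at 3.18 and 3.31 FPKM in Control and at 7.55 and 6.08 FPKM in Shh-Stk11. Both Shh-Stk11 libraries were far above the Controls, at 2.06-fold (log2 fold change 1.04, SE 0.165, interval 1.56 to 2.71-fold, limma adjusted p = 0.0354). Its transcript is 7607 bases long with 39.1% GC, and once the length and GC trend was removed it was at 0.60 and no longer called (limma adjusted p = 0.125). It was called in 6 of 16 alternatives, and leaving out a library ended the call, with limma adjusted p of 0.198 without Control 1, 0.171 without Control 2, 0.166 without Shh-Stk11 1 and 0.0674 without Shh-Stk11 2. Atg13 was at 19.3 and 14.5 FPKM in Control and 13.4 and 13.7 FPKM in Shh-Stk11 (log2 fold change -0.30, limma adjusted p = 0.457), and Atg101, listed under its older symbol 9430023L20Rik, was at 28.5 and 28.0 against 25.1 and 29.6 FPKM (log2 fold change -0.05, limma adjusted p = 0.893).

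**Figure D4:**
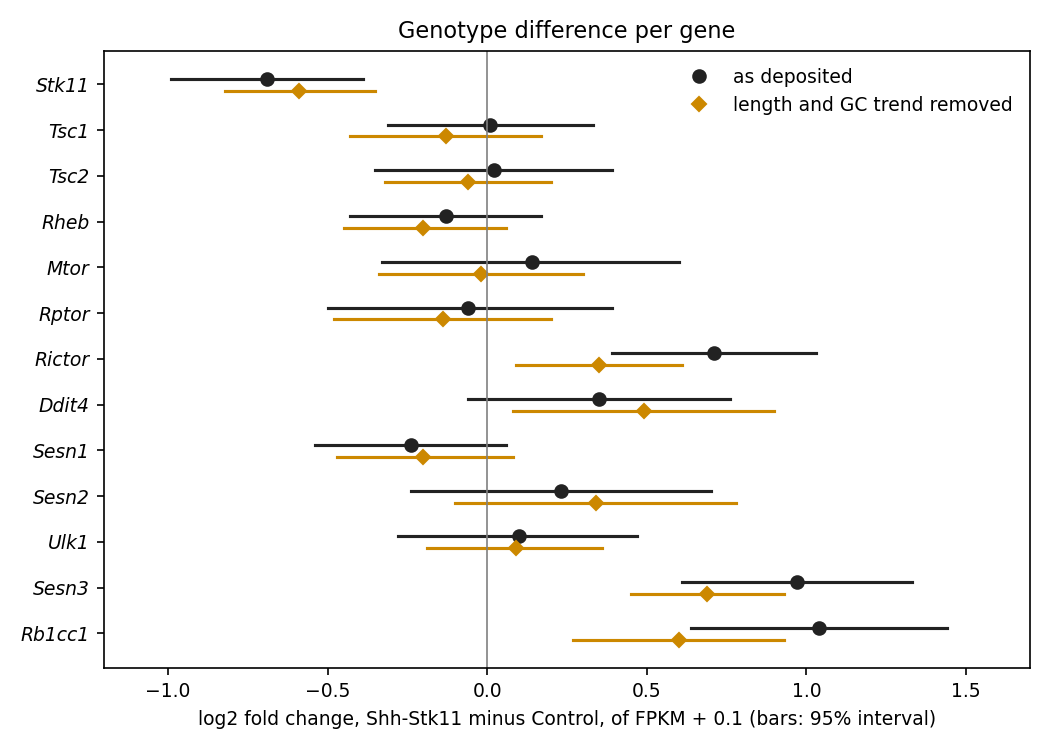
log2 fold change (Shh-Stk11 minus Control) with its 95% limma interval for Stk11, the 10 regulators, Sesn3 and Rb1cc1, as deposited (black) and after removal of the length and GC trend (orange). Rictor moved from 0.71 to 0.35, Rb1cc1 from 1.04 to 0.60 and Sesn3 from 0.97 to 0.69, and the as-deposited intervals of the other 9 regulators included 0.

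The spread between replicates differed among the 10 regulators and was shared by many of them. Only for Rheb, Rictor and Sesn1 did the genotype difference exceed the replicate gap of both genotypes. For Rheb the margin was narrow, with a difference of -0.13 beside gaps of -0.10 and -0.11. The share of all genes tested that meet this rule was not computed, so the count cannot be set against a background. In 7 of the 10, Tsc1, Tsc2, Mtor, Rptor, Rictor, Sesn2 and Ulk1, replicate 1 was above replicate 2 in both genotypes, against 20.6% of all genes tested. With the length and GC trend removed this held for 2, Tsc2 and Sesn2, against 16.1% of all genes. The gap of Mtor between the Controls went from 0.47 to 0.20 on the log2 scale, that of Rictor from 0.11 to -0.07, and that of Sesn2 only from 0.46 to 0.42.

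The rest of the pathway was read from lists of 119 other genes tested, 2 called higher (Sesn3 and Rb1cc1) and 1 called lower (Nupr1), or 2.52%, beside 2.27% of all genes, with a median log2 fold change of -0.08. In the list of complex partners and paralogs 2 of 14 genes were called higher and none lower, beside 0.98% and 1.29% of all genes, and the median was -0.11, with 3 genes higher and 7 lower without overlap, beside 19.2% and 27.6% of all genes. This list, too, was drawn up with earlier results known, so its count is no independent evidence. The amino acid branch, which brings mTORC1 to the lysosome, had 0 of 27 tested genes called by limma and 3 at an unadjusted p below 0.05, beside 15.2% of all genes, with a median of -0.12. Its most abundant genes were Lamtor2, a part of the Ragulator anchor, at 140 and 174 FPKM in Control against 120 and 138 FPKM in Shh-Stk11, and Sec13, a GATOR2 subunit, at 83.6 and 99.0 against 78.9 and 78.5 FPKM. Neither passed the test. The 3 genes at an unadjusted p below 0.05 were Flcn, with its partner Fnip1 an activator of the Rag GTPases, at a log2 fold change of -0.51, Fnip1 at 0.42, and Gatsl3, the older symbol of the arginine sensor Castor1, at -0.70 (limma adjusted p = 0.199, 0.184 and 0.169). They were named after their values were seen, as are the other genes given below for an unadjusted p.

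The growth factor branch, which signals through PI3K and AKT to the TSC complex, had 0 of 13 genes called by limma, 0 at an unadjusted p below 0.05, again beside 15.2% of all genes, and a median of 0.02. Akt1, the kinase that phosphorylates and inhibits TSC2, was at 102 and 108 FPKM in Control and at 93.2 and 86.7 FPKM in Shh-Stk11 (log2 fold change -0.22, interval -0.53 to 0.08), and Akt2 at 36.6 and 31.1 against 29.4 and 30.5 FPKM (-0.17, interval -0.49 to 0.14). Among the effectors of mTORC1, which carry its output to translation and lysosomes, 0 of 15 were called by limma, 2 had an unadjusted p below 0.05 (15.2% of all genes) and the median was -0.09. Those 2 were direct substrates with opposite signs, the kinase gene Rps6kb1 at 0.47 and the translation repressor gene Eif4ebp1 at -0.47 (limma adjusted p = 0.169 and 0.133). The most abundant effectors, the initiation factor Eif4b (256 and 231 against 217 and 242 FPKM) and the adaptor Grb10 (223 and 204 against 233 and 190 FPKM), overlapped between the genotypes.

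Ddit4 and the Sestrins are shared targets of several stress programs, and genes of those programs were read beside them. In the ATF4 stress response 1 of 15 tested genes was called, beside 2.27% of all genes, and 3 had an unadjusted p below 0.05, beside 15.2%. Nupr1, a stress-induced chromatin-associated protein gene, fell, from 94.9 and 69.3 FPKM in Control to 36.2 and 38.2 FPKM in Shh-Stk11 (log2 fold change -1.12, SE 0.172, limma adjusted p = 0.0322, 0.459-fold). Both Shh-Stk11 values were far below the Controls, although without Control 1 the difference was -0.90 and the call was lost (limma adjusted p = 0.114), as it was without Control 2 (0.0591), Shh-Stk11 1 (0.104) or Shh-Stk11 2 (0.0817). It was called in 6 of 16 alternatives. Psat1, of serine synthesis, was at 128 and 136 FPKM in Control and 81.0 and 89.6 FPKM in Shh-Stk11 (log2 fold change -0.63, limma adjusted p = 0.0712), and Asns, of asparagine synthesis, had a log2 fold change of -0.64 (limma adjusted p = 0.0594). Neither passed the threshold, and Atf4 itself overlapped, at 86.4 and 98.6 against 88.6 and 94.3 FPKM. The median of this list was near 0, at -0.01, with 7 of 15 genes above 0 and 8 below, and the regulator in it, Sesn2, had a value above 0.

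The other programs had no called gene, and their counts at an unadjusted p stand beside the same 15.2% of all genes. Of 13 tested p53 targets, which hold Sesn1 and Sesn2, 0 were called by limma and 1, Phlda3, had an unadjusted p below 0.05 (log2 fold change -0.40), with a list median of 0.07. The abundant Btg2 was at 69.9 and 62.7 FPKM in Control and 75.3 and 87.6 FPKM in Shh-Stk11, without overlap, and Bax at 53.9 and 61.5 against 46.4 and 54.1 FPKM, with overlap. Of 15 HIF1 targets, which hold Ddit4, 0 were called by limma and 1, the oxygen sensor gene Egln3, had an unadjusted p below 0.05 (log2 fold change -0.59, limma adjusted p = 0.0592), with a median of -0.10. Ldha (655 and 620 against 587 and 835 FPKM) and Vegfa (130 and 117 against 95.7 and 125 FPKM) overlapped between the genotypes. Of 12 glucocorticoid targets, which also hold Ddit4, 0 were called by limma, 2 (Zbtb16 at -0.41 and Dusp1 at -0.32) had an unadjusted p below 0.05 and the median was 0.02. Cdkn1c (213 and 254 against 248 and 267 FPKM) and Mt1 (188 and 182 against 127 and 223 FPKM) overlapped as well.

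**Figure D5:**
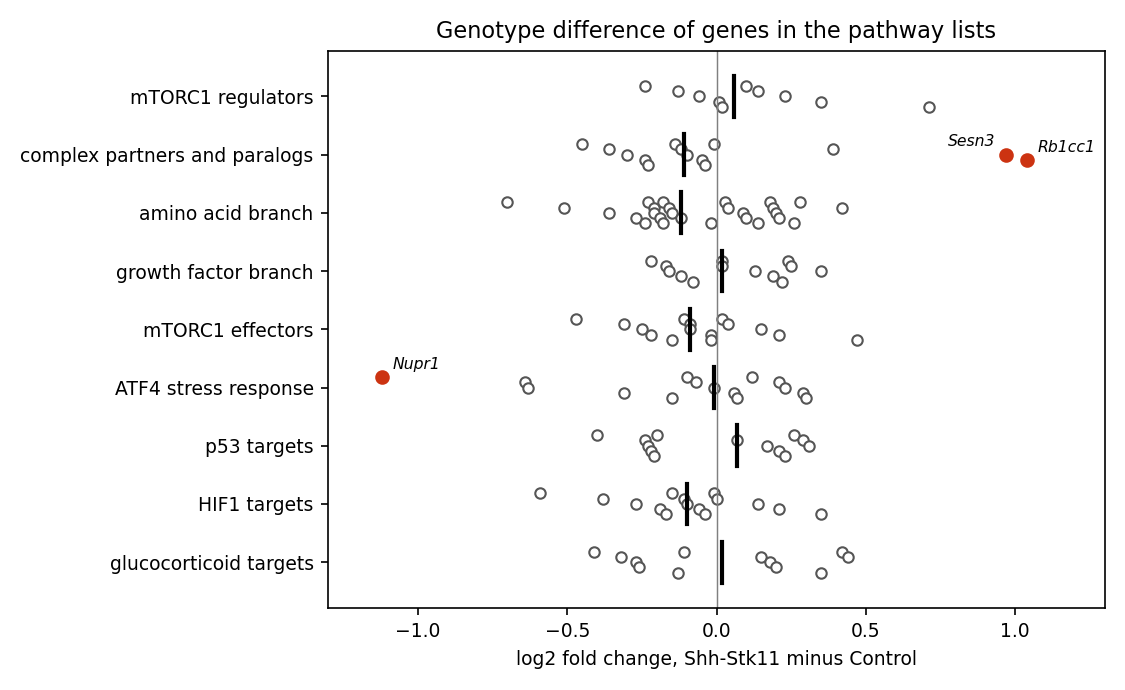
log2 fold change (Shh-Stk11 minus Control) of each tested gene of the 10 regulators and of the 8 other lists, with a black bar at each median and filled red points for limma adjusted p below 0.05. The 3 filled points are Sesn3 at 0.97, Rb1cc1 at 1.04 and Nupr1 at -1.12, and the medians lie between -0.12 and 0.07.

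The 10 regulators as a set had a mean-centred log2 profile of -0.00 and -0.11 in Control and 0.13 and -0.02 in Shh-Stk11. By the distance of the mean-centred log2 values from that profile, the pathway genes most like it were Tcfe3 (the older symbol of Tfe3) at 0.0716, Tcfeb (Tfeb) at 0.0957 and Mios at 0.113. Tfe3 and Tfeb encode lysosomal transcription factors that mTORC1 holds in the cytoplasm, and Mios encodes a GATOR2 subunit. Of all genes tested, 85 (0.617%), 202 (1.47%) and 331 (2.40%) were at least as near. Tcfe3 was at 13.9 and 13.2 FPKM in Control and at 14.7 and 13.3 FPKM in Shh-Stk11, and Tcfeb was at 5.84 and 5.48 against 5.99 and 5.49 FPKM, both with overlap. Mios was at 10.8 and 10.7 FPKM in Control and at 11.9 and 11.7 FPKM in Shh-Stk11, without overlap, and its log2 fold change of 0.14 (interval -0.15 to 0.43) did not pass the test. The ratio of Mtor to Rheb, the kinase to its activator, was 0.0835 and 0.0559 in Control and 0.0905 and 0.0754 in Shh-Stk11, with overlap (log2 difference 0.27, exact permutation p = 0.667).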

How the data were processed

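Total RNA of whole E16.5 lungs was sequenced as single-end 50-base reads, and the authors deposited FPKM values for each gene in each of the 4 libraries. The processing notes of the submitters name TopHat2 2.0.13 and Cufflinks 2.2.1, and both GRCm38 and mm9 without a role, so no gene positions are taken from the table. Annotation, strand setting and scaling between libraries were not given in the sources used here. No single read is kept in such values, but among 1806 low genes 76.8% of the value sets were whole multiples of a step (tolerance 0.3%). Depth was estimated from these steps and from transcript lengths. Reads per gene were then estimated from the longest annotated transcript of each gene. They would be fewer, and their counting error larger, where shorter transcripts prevail. Counting errors from these reads cover counting error only. FPKM are not counts, and no count model was used.

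Groups came from the genotype labels. log2(FPKM + 0.1) of genes averaging 0.5 FPKM or more was fitted with genotype as the only term in limma 3.58.1 (R 4.3.3; lmFit and eBayes with a trend, 4.48 prior and 2 residual degrees of freedom). Tests were two-sided, with Benjamini-Hochberg adjustment over all 13770 genes and a threshold of 0.05. A log2 fold change on this scale understates the change of low genes. Exact permutation tests were used for ratios. Because labels gave no litter, p-values measure the spread between these samples. Of the genes in the pathway lists, Kics2 was not found and Slc7a11 and Eda2r were below the filter. Of the cell type markers, Hbb-bt and Ahsp were not found and some others were below the filter. Symbols were matched to GENCODE for transcript length and GC content (20242 directly, 1896 through synonyms, 418 not matched). Promoters came from RefSeq, where all 10 regulators had an entry.

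The regulators and all lists were chosen with earlier results of these data known. The text names the regulators, Stk11, and every called gene and the 2 most abundant other genes of each pathway list. It also names the 3 genes nearest the mean profile, and Xist and Ddx3y. Beside these stand others said to be named after their values were seen and further complex partners. Called markers of cell types are counted but not named. Alternatives were pseudocounts of 1 and 0.01, filters of 0.1 and 5 FPKM and none, quantile and median ratio scaling, eBayes without the trend, removal of the length and GC trend, a replicate block with and without it, leaving out each library, and a crossed pairing.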

Additional observations from a re-analysis of the deposited data

How the results depend on the processing

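With 2 libraries per genotype, every count of calls depended on the settings. Over the whole table, 135 genes were called higher and 178 lower. The higher count was 20 with no filter, 83 with the length and GC trend removed and 15 to 64 when each library was left out in turn. The lower count was 90 with a filter of at least 5 FPKM, 41 with no filter, 110 with the length and GC trend removed and 23 to 127 with a library left out. Of the 10 regulators, 0 were called, and 1 (Rictor) was called with a pseudocount of 0.01 and with a filter of at least 5 FPKM, and none with any library left out. Of the other pathway genes 3 were called, and 0 with no filter or with any library left out, and 1 with quantile normalization, with eBayes without the trend and after removal of the length and GC trend. Fewer residual degrees of freedom go with each library left out. The causes of the other shifts were not tested.

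The replicate numbers are shared by the genotypes, but nothing in the labels says that they mark a litter or batch. Deviations of same-numbered libraries from their genotype means had a correlation of -0.114. The replicate block gave 6 genes higher and 7 lower, 7 and 8 once the length and GC trend was also removed, and 0 other pathway genes in either case. Its log2 fold changes were those of the unblocked fit, and Rictor had a limma adjusted p of 0.166. A crossed pairing, chosen after seeing the data, gave 360 genes higher, 315 lower and 1 regulator called.

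The median log2 fold change of the regulators, 0.06, was -0.06 without Shh-Stk11 1, -0.05 without Control 2 and, in the female libraries alone (Shh-Stk11 2 left out), 0.19, and it was -0.04 once the length and GC trend was removed, with or without the block. Small differences changed sign. With the length and GC trend removed, with or without the replicate block, Tsc1 was at -0.13, Tsc2 at -0.06, Mtor at -0.02, Tcfe3 at -0.05, 9430023L20Rik at 0.12, Atf4 at 0.11, and Bax and Mt1 at 0.03 each. With quantile normalization Tsc1 was at -0.02, Tcfeb at -0.005, Eif4b at 0.01, Grb10 at 0.08 and Atf4 at 0.11, and with median ratio scaling Grb10 was at 0.02 and Atf4 at 0.03. With each library left out in turn, Tsc1 ran from -0.06 to 0.08, Tsc2 from -0.12 to 0.16, Mtor from -0.10 to 0.37, Rptor from -0.27 to 0.16, Sesn2 from -5e-04 to 0.46, Ulk1 from -0.06 to 0.25, 9430023L20Rik from -0.17 to 0.07, Grb10 from -0.17 to 0.13, Atf4 from -0.11 to 0.08, Ldha from -0.12 to 0.39, Vegfa from -0.37 to 0.02, Mt1 from -0.54 to 0.27, Tcfe3 from -0.03 to 0.12 and Tcfeb from -0.04 to 0.08. None of these 14 genes was called in any setting. The log2 ratio difference ran from -0.10 to 0.09 for Tsc1 to Tsc2, from -0.02 to 0.56 for Mtor to Rheb, from -0.76 to -0.20 for Sesn1 to Sesn2, from 0.01 to 0.22 for Ulk1 to Ulk2 and from 0.62 to 0.93 for Rictor to Rptor. The Sesn3 share differed by 14.5 to 21 points, and by 12.6 with the trend removed. Rheb, Rictor, Ddit4, Sesn1 and Sesn3 kept their direction in every setting tried, as did other named genes, among them Stk11, Rb1cc1 and Nupr1. The genotypes of these genes did not overlap, so leaving out a library could not reverse them. The filter, eBayes and block settings do not change the estimate. Their steady direction is therefore largely fixed by the lack of overlap and is no separate evidence.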
